A study of Mus musculus with 2 samples.

Results

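The small leucine-rich proteoglycans (SLRPs) are a family of secreted matrix proteins, and 10 of them (*Dcn*, *Bgn*, *Aspn*, *Fmod*, *Lum*, *Prelp*, *Epyc*, *Ogn*, *Omd* and *Chad*) were taken by gene symbol from a table of 24421 rows, in which all 10 were found. The table held reads counted per gene in 1 library of chondrocytes and 1 library of dermal fibroblasts, both primary cells of newborn mice. The chondrocytes were freed from rib cartilage with collagenase and used within 2 passages, and the fibroblasts were freed from the skin of the back, which served as the comparison without cartilage. Neither cell type carried an engineered allele or received a treatment as far as the sources state, and the strain and the number of animals behind each library are not given in the sources used here. Per the methods, sex was not taken as a variable in the study. With a single library behind each cell type, no p-value was computed and the differences lack a replicate check.

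SLRPs share a core of leucine-rich repeats flanked by cysteines, and most of them carry chains of chondroitin, dermatan or keratan sulfate. They sit on the surface of collagen fibrils, set the spacing and width of the fibrils, and hold growth factors such as TGF-β in the matrix. They are grouped into classes by sequence. Decorin (*Dcn*), biglycan (*Bgn*) and asporin (*Aspn*) are class I, fibromodulin (*Fmod*), lumican (*Lum*), PRELP (*Prelp*) and osteomodulin (*Omd*) are class II, epiphycan (*Epyc*) and osteoglycin (*Ogn*) are class III, and chondroadherin (*Chad*) is class IV. Decorin and lumican are well known in skin, whereas epiphycan and chondroadherin are known as cartilage proteins.

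The chondrocyte library held 18788599 counted reads and the dermal fibroblast library 17563724. They were scaled with TMM factors (edgeR), and levels are given as CPM, the counts per 1000000 reads of the scaled library. A floor of 3 counts was used in folds, and folds carry 95% intervals (Clopper-Pearson) of the counting error alone. These treat reads as independent draws, which reads are not, so they may be too narrow even for that error. The labels of the libraries were checked against marker genes. All 9 chondrocyte markers were over 2-fold higher in chondrocytes, with *Col2a1* and *Matn1* at 0 counts in dermal fibroblasts, and all 9 dermal fibroblast markers were over 2-fold higher in dermal fibroblasts. Transcripts of other cell types were present in both libraries. The summed level of 9 skeletal muscle markers was 1761 CPM in chondrocytes and 1289 CPM in dermal fibroblasts, and 4 of them were over 2-fold higher in chondrocytes and 0 in dermal fibroblasts. That of 7 macrophage markers was 109 and 195 CPM, with 2 of the 6 that had at least 10 counts over 2-fold higher in dermal fibroblasts. Of all 14291 genes with at least 10 counts in either library, 11.8% were over 2-fold higher in chondrocytes and 16.2% in dermal fibroblasts.

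The regions just upstream of 3 chondrocyte-high members and 1 fibroblast-high member are shown first, since *Epyc* and *Chad* had the widest differences and *Aspn* and *Omd* are adjacent genes with opposite differences. Each sequence is the 250 bases before a transcription start in the RefSeq annotation of GRCm38.p6 (mm10), on the plus strand, which is the coding strand of these 4 genes. Capitals mark matches on either strand to the letters ACAAT, the core of sites bound by SOX proteins, to TATAAA, the box that many core promoters hold, and to GGGCGG, the site of SP factors. No matches overlap in these windows. *Epyc* has a pair of annotated starts, of which the second lies inside the gene.

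*Epyc*, first start (chr10:97643818-97644067): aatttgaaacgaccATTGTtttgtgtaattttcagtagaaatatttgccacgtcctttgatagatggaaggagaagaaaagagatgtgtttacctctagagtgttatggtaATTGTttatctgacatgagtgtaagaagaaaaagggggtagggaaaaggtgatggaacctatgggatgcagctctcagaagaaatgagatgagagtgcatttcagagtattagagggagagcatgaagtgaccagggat
*Epyc*, second start (chr10:97646853-97647102): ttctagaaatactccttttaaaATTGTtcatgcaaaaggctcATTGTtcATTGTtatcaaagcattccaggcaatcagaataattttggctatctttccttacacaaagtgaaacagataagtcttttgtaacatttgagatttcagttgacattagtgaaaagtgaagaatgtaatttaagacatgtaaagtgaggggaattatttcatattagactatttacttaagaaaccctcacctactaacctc
*Chad* (chr11:94564797-94565046): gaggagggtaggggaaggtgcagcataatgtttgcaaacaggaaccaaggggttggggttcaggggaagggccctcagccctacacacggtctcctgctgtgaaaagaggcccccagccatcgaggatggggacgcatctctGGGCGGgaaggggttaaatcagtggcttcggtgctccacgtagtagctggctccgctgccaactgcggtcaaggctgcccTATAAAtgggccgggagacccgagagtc
*Omd* (chr13:49582212-49582461): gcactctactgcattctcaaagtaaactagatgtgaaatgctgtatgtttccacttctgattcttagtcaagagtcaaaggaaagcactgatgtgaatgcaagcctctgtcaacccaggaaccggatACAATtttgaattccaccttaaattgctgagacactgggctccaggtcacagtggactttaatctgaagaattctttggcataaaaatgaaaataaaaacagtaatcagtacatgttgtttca
*Aspn* (chr13:49544193-49544442): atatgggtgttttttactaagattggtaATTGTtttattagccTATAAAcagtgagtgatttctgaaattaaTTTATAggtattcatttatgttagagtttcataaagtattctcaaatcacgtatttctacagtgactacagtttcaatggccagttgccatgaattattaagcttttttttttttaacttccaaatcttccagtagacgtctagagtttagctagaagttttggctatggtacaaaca

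The *Epyc* windows held 2 and 3 matches to ACAAT. The *Omd* and *Aspn* windows held 1 match each, and that of *Chad* held 0. Of all 32851 windows of this length in the RefSeq table, 27.7% held at least 1 match and 1.35% held 3 or more. The second *Epyc* window had a GC content of 31.2%, against a median of 52.4% over all windows, and the part of base composition in its matches was not tested. *Chad* had a TATAAA match close to its start and 1 GGGCGG match. The *Aspn* window had 2 TATAAA matches far from the start, and the windows of *Epyc* and *Omd* had 0. TATAAA was found in 12.4% of all windows and GGGCGG in 32.7%. The motif TGACTCA (AP-1) was also searched, was found in 4.46% of all windows, and was in 0 of the 9 windows of the 8 members with an entry, which were *Aspn*, *Bgn*, *Chad*, *Epyc*, *Fmod*, *Ogn*, *Omd* and *Prelp*. ACAAT was in 5 of these 9 windows, both *Epyc* windows among them, and was absent from those of *Bgn*, *Chad*, *Fmod* and *Ogn*. It was therefore present upstream of a fibroblast-high member, and of some but not all chondrocyte-high members.

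The members differed between the cell types in both directions. The listed members of one class pointed the same way, although those of class II did not all pass 2-fold. Other family genes of classes I, II and IV did not all share that direction (*Ecm2*, *Kera* and *Tsku*, below). Of the 10 members, 5 were over 2-fold higher in chondrocytes (*Epyc*, *Chad*, *Omd*, *Fmod* and *Ogn*), 3 were over 2-fold higher in dermal fibroblasts (*Dcn*, *Aspn* and *Bgn*), and 2 lay within 2-fold (*Prelp* and *Lum*). Among the 14291 genes with at least 10 counts in either library, 11.8% were over 2-fold higher in chondrocytes and 16.2% in dermal fibroblasts. For all 8 members with such a fold the interval lay wholly beyond 2-fold, 5 in chondrocytes and 3 in dermal fibroblasts, against 7.21% and 10.8% of the 14291 genes. These shares are not like for like, since intervals narrow with depth. Each of the 8 had at least the 634 counts of *Chad* in its higher library, while many of the 14291 genes had far fewer. The intervals also leave out the choice of scaling, which took *Bgn* below 2-fold with some scalings (below). The median log2 fold of the members was 1.59 and that of all these genes was -0.00, while the median size of the log2 fold, without its sign, was 2.18 for the members and 0.50 for all these genes. All 3 class I members were higher in dermal fibroblasts. Both class III members and the class IV member were higher in chondrocytes, and the 4 class II members ranged from a log2 fold of 0.19 to 3.75.

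**Figure D1:**
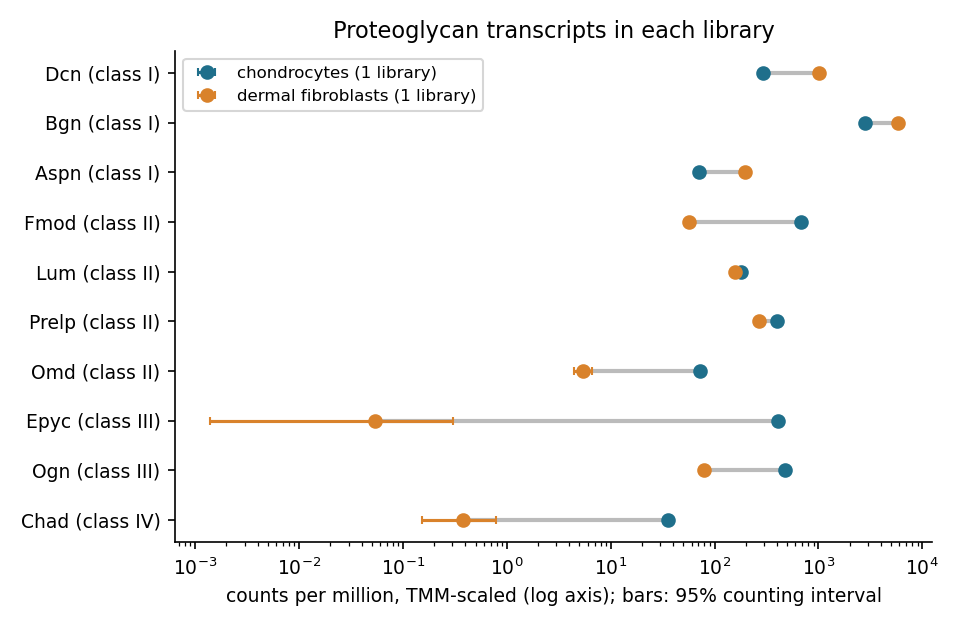
Level of each member in the chondrocyte library and the dermal fibroblast library, in TMM-scaled CPM on a log axis, with 95% counting intervals as bars (1 library per cell type, so no replicate error). *Epyc* and *Chad* sit below 1 CPM in dermal fibroblasts, and the 3 class I members are the ones with the dermal fibroblast point to the right.

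Decorin, the best studied SLRP of skin and tendon, binds type I collagen fibrils and TGF-β. *Dcn* (GRCm38 chromosome 10, from 97479500 to 97518163) had 5247 counts in chondrocytes against 18509 in dermal fibroblasts, which is 292.7 and 1005 CPM. It was 3.43-fold higher in dermal fibroblasts (counting interval 3.33 to 3.54), the widest difference in that direction among the members. Biglycan, its closest relative, carries chondroitin or dermatan sulfate chains and is abundant in bone and cartilage as well as skin. *Bgn* (chromosome X, 73483601 to 73495936) had 50802 counts in chondrocytes against 106591 in dermal fibroblasts, which is 2834 and 5790 CPM. The dermal fibroblast level was 2.04-fold higher (interval 2.02 to 2.06). This value lay close to the 2-fold threshold and ranged from 1.88 (scaling by *Actb*) to 2.24 (total counts) over the 6 scalings tried. It was below 2 with *Actb*, with the upper quartile and with totals without the most abundant genes (1.98), and then 2 in place of 3 members were over 2-fold higher in dermal fibroblasts. Asporin has a run of aspartates in place of the sulfated chain of its class. *Aspn* (chromosome 13, 49544443 to 49567565) had 1256 and 3587 counts, which is 70.1 CPM in chondrocytes and 194.8 CPM in dermal fibroblasts. It was 2.78-fold higher in dermal fibroblasts (counting interval 2.61 to 2.97).

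The ratio between class I members was also different in the libraries. Reads of *Dcn* were 0.103 times those of *Bgn* in chondrocytes and 0.174 times in dermal fibroblasts. This ratio needs no scaling between libraries, and it was 1.68-fold higher in dermal fibroblasts (counting interval 1.63 to 1.74). *Dcn* and *Bgn* were both higher in dermal fibroblasts, *Dcn* by the wider margin. Markers of keratinocytes and of endothelium moved in the same direction as class I. Of 7 keratinocyte markers with at least 10 counts in either library, 5 were over 2-fold higher in dermal fibroblasts, where the summed level of all 8 was 254.5 CPM against 8.98 CPM in chondrocytes, and *Dsg3* was at 0 in chondrocytes. Of 7 endothelial markers, 6 were over 2-fold higher in dermal fibroblasts, with summed levels of 46.6 and 15.1 CPM. For both lists, the share over all 14291 genes with at least 10 counts was 16.2%. The part of keratinocytes and endothelium in the levels of *Dcn*, *Bgn* and *Aspn* was not tested.

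Class II held both members with a wide difference and the 2 members closest to equality. Fibromodulin and lumican carry keratan sulfate and bind overlapping sites on type I collagen. *Fmod* (chromosome 1, 134037254 to 134048280) had 12306 counts in chondrocytes against 1051 in dermal fibroblasts, which is 686.5 and 57.1 CPM, and was 12.0-fold higher in chondrocytes (interval 11.3 to 12.8). *Lum* (chromosome 10, 97565501 to 97572703) had 3191 counts in chondrocytes against 2881 in dermal fibroblasts, which is 178 and 156.5 CPM. Its fold was 1.14 in favour of chondrocytes (interval 1.08 to 1.197), and it stayed between 1.04 and 1.24 over the scalings tried. The count ratio of *Fmod* to *Lum* was 3.86 in chondrocytes and 0.365 in dermal fibroblasts, so the more frequent transcript of this pair was *Fmod* in cartilage cells and *Lum* in skin cells. The ratios differed 10.6-fold (interval 9.75 to 11.5).

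PRELP has a basic stretch at its amino end that binds heparan sulfate and is known from the surroundings of basement membranes and from cartilage. *Prelp* (chromosome 1, 133910304 to 133930102) had 7224 counts in chondrocytes against 4894 in dermal fibroblasts, which is 403 and 265.8 CPM. It was 1.52-fold higher in chondrocytes (interval 1.46 to 1.57), within the 2-fold threshold. Osteomodulin, also called osteoadherin, is a keratan sulfate proteoglycan known from mineralized matrix. *Omd* (chromosome 13, 49582462 to 49592612) had 1309 counts in chondrocytes against 100 in dermal fibroblasts, which is 73.0 and 5.43 CPM, and was 13.4-fold higher in chondrocytes (interval 11.0 to 16.6).

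Markers of bone-forming cells moved with *Omd*, with a summed level of 73.7 CPM in chondrocytes and 10.3 CPM in dermal fibroblasts. Most of both sums came from *Alpl*, at 40.9 and 9.40 CPM. All 5 of the 7 osteoblast markers with at least 10 counts in either library were over 2-fold higher in chondrocytes, against 11.8% of all 14291 genes with such counts. *Bglap* was at 0 in dermal fibroblasts and had 6 counts in chondrocytes. *Ibsp*, which encodes a bone matrix sialoprotein, had 349 counts in chondrocytes against 1 in dermal fibroblasts, and *Sp7*, an osteoblast transcription factor, had 156 and 13. The part of bone cells in the level of *Omd* was not tested. In these bulk libraries, more cells of a type and more RNA per cell cannot be told apart.

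Class III showed the widest difference among the members. Epiphycan is a chondroitin or dermatan sulfate proteoglycan of growth plate cartilage. *Epyc* (chromosome 10, 97644068 to 97681908) had 7388 counts in chondrocytes against 1 in dermal fibroblasts, which is 412.2 and 0.0543 CPM. The ratio of the scaled counts was 7588 with a counting interval from 1362 to 299755, and with the 1 read raised to the floor of 3 counts the fold was 2529. Its log2 fold of 11.3 was above that of 99.9% of the 14291 genes. Osteoglycin, also called mimecan, is found in bone, cartilage, tendon and many other connective tissues. *Ogn* (chromosome 13, 49608015 to 49624501) had 8542 counts in chondrocytes against 1459 in dermal fibroblasts, which is 476.5 and 79.2 CPM, and was 6.01-fold higher in chondrocytes (interval 5.69 to 6.36). Unlike *Epyc*, it was well above the detection limit in dermal fibroblasts.

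Chondroadherin, the class IV member, binds type II collagen and integrin α2β1 on chondrocytes. *Chad* (chromosome 11, 94565047 to 94569127) had 634 counts in chondrocytes against 7 in dermal fibroblasts, which is 35.4 and 0.380 CPM. It was 93.0-fold higher in chondrocytes, with an interval from 44.9 to 232 that reflects the 7 reads. Per exon length it was the least abundant member in chondrocytes, although only *Epyc* had a wider fold.

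Transcripts of tendon and perichondrium, tissues that are rich in *Fmod*, *Ogn* and *Aspn*, were seen in both libraries. Of 6 such markers, 3 were over 2-fold higher in chondrocytes (*Thbs4*, *Scx* and *Mkx*), and 2 in dermal fibroblasts (*Postn* and *Kera*). Of all 14291 genes with at least 10 counts in either library, 11.8% and 16.2% were so. *Mkx* had 52 and 24 counts. *Kera*, itself a gene of the SLRP family, had 13 counts in dermal fibroblasts. *Thbs4*, a thrombospondin of tendon and cartilage, had 3668 counts in chondrocytes against 220 in dermal fibroblasts. *Scx*, a tendon transcription factor, had 160 and 58 counts, *Tnmd*, a late tendon marker, had 128 and 193, and *Kera* was at 0 in chondrocytes. The summed level of the list was 521 CPM in chondrocytes and 2150 CPM in dermal fibroblasts, where *Postn* supplied 39067 counts. The part of such cells in the levels of *Fmod* and *Ogn* was not tested.

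**Figure D2:**
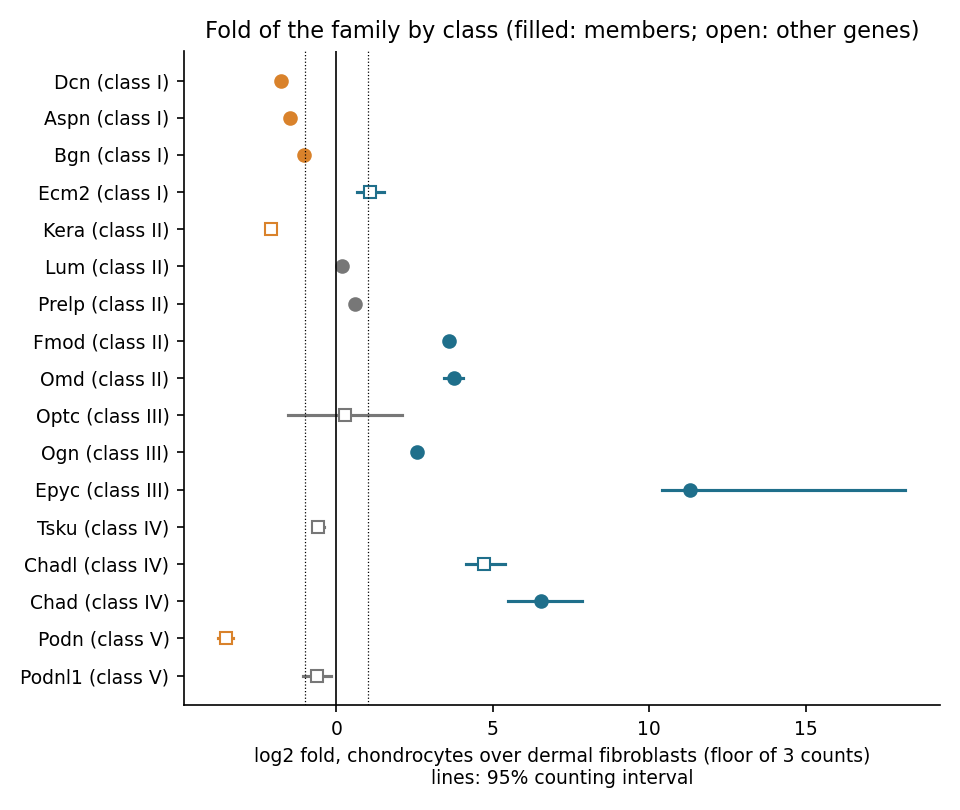
Log2 fold of chondrocytes over dermal fibroblasts for the 10 members (filled circles) and 7 other genes of the family (open squares), ordered by class, with 95% counting intervals as lines and dotted lines at 2-fold. *Kera* is at 0 counts in chondrocytes and is drawn at its fold against the floor, without a line. *Nyx*, with 2 counts in each library, is left out. Among the filled circles, those of class I lie left of the threshold and those of classes III and IV lie right of it. The open squares do not all follow their class.

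Measured per length of exon (RPKM, CPM divided by the kilobases of merged exons in GENCODE vM1), *Bgn* was the most abundant member in both libraries. It reached 795 RPKM in chondrocytes and 1625 RPKM in dermal fibroblasts, ranks 46 of 15157 and 9 of 15106 genes with a count and a length. The merged exons of *Bgn* take 3563 bases and its longest transcript 2377, and with the latter its levels were 1192 and 2436 RPKM. In chondrocytes *Bgn* was followed by *Fmod* (208 RPKM), *Ogn* (188 RPKM), *Epyc* (161 RPKM), *Dcn* (151 RPKM), *Prelp* (111 RPKM), *Lum* (85.8 RPKM), *Omd* (46.9 RPKM), *Aspn* (29.9 RPKM) and *Chad* (21.1 RPKM). All neighbours in this order had counting intervals that did not overlap, although *Epyc* and *Dcn* changed places when the longest transcript was used as the length. In dermal fibroblasts the order after *Bgn* was *Dcn* (519 RPKM), *Aspn* (83.1 RPKM), *Lum* (75.4 RPKM), *Prelp* (73.5 RPKM), *Ogn* (31.2 RPKM), *Fmod* (17.3 RPKM), *Omd* (3.49 RPKM), *Chad* (0.226 RPKM) and *Epyc* (0.0212 RPKM). The intervals of *Lum* and *Prelp* overlapped there, as did those of *Chad* and *Epyc*. Thus 5 members besides *Bgn* exceeded 100 RPKM in chondrocytes, while *Dcn* alone did so in dermal fibroblasts.

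Together the 10 members took 0.521% of all reads in chondrocytes (exact 95% interval 0.518 to 0.524) and 0.792% in dermal fibroblasts (interval 0.788 to 0.796). After scaling, their summed counts were 1.38-fold higher in dermal fibroblasts (counting interval 1.37 to 1.39). Most of these reads came from *Bgn*, which made up 51.9% of the members' reads in chondrocytes and 76.6% in dermal fibroblasts. Without *Bgn*, the remaining 9 members summed to 47097 counts in chondrocytes against 32489 in dermal fibroblasts, and were 1.49-fold higher in chondrocytes (interval 1.47 to 1.51). Class I supplied 58.5% of the members' reads in chondrocytes and 92.5% in dermal fibroblasts. Class II supplied 24.5% and 6.42%, and class III 16.3% and 1.05%. Per exon length, *Fmod*, *Ogn* and *Epyc* made up 11.6%, 10.4% and 8.95% of the members' summed RPKM in chondrocytes, and 0.711%, 1.28% and 0.000873% in dermal fibroblasts. *Dcn* went the other way, with 8.41% in chondrocytes and 21.4% in dermal fibroblasts.

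**Figure D3:**
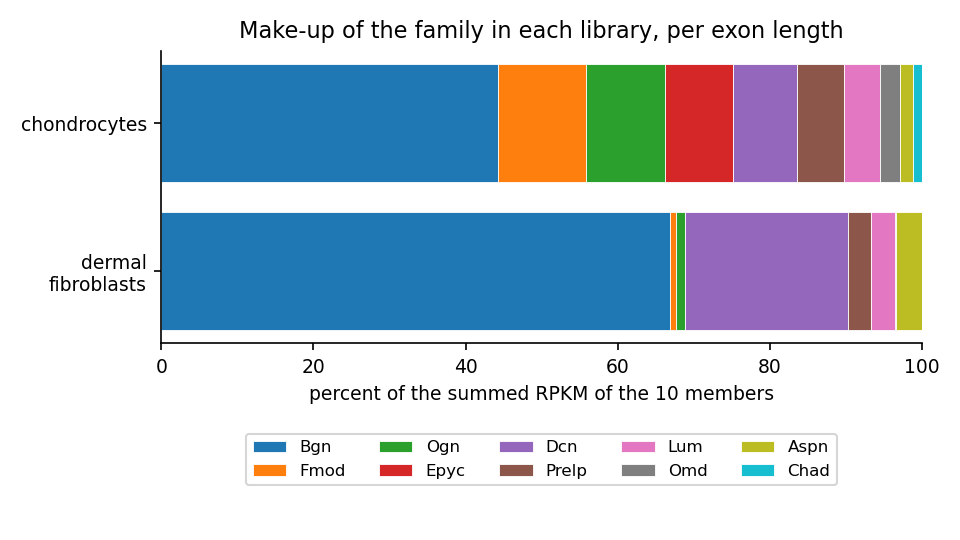
Share of each member in the summed RPKM of the 10 members, in percent, for the chondrocyte library (top bar) and the dermal fibroblast library (bottom bar). *Bgn* takes 44.2% of the chondrocyte bar and 66.9% of the dermal fibroblast bar, and *Epyc*, *Omd* and *Chad* are too thin to be seen in the latter.

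Most of the members lie in 3 gene clusters, and 2 of these held members that differed in opposite directions. On chromosome 10, *Dcn*, *Lum*, *Kera* and *Epyc* span 202 kb. From the fibroblast-high *Dcn* it is 47.3 kb to *Lum*, which was close to equality, and the chondrocyte-high *Epyc* lies at the far end, 30.4 kb past *Kera*. On chromosome 13, *Ecm2*, *Aspn*, *Omd* and *Ogn* span 120 kb. *Aspn* and *Omd* are 14.9 kb apart, and the count ratio of *Aspn* to *Omd* was 0.960 in chondrocytes against 35.9 in dermal fibroblasts, a 37.4-fold difference (interval 30.2 to 46.3). *Omd* and *Ogn*, 15.4 kb apart, were both higher in chondrocytes. On chromosome 1, *Optc*, *Prelp* and *Fmod* span 151 kb, and *Prelp* and *Fmod*, 107 kb apart, were both higher in chondrocytes, by 1.52-fold and 12.0-fold.

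The genes of the chromosome 13 cluster lie within the annotated span of *Cenpp*, a centromere protein gene on the other strand, and *Chad* lies within that of *Acsf2*. None of these pairs shared exon bases in GENCODE vM1. *Cenpp* had 166 counts in chondrocytes against 57 in dermal fibroblasts. The long noncoding RNA gene *Gm10754* shares 315 of the 2561 exon bases of *Epyc* on the other strand and had 42 and 0 counts. Whether the counting used the strand is not given in the sources used here, so reads in these shared bases cannot be told apart.

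**Figure D4:**
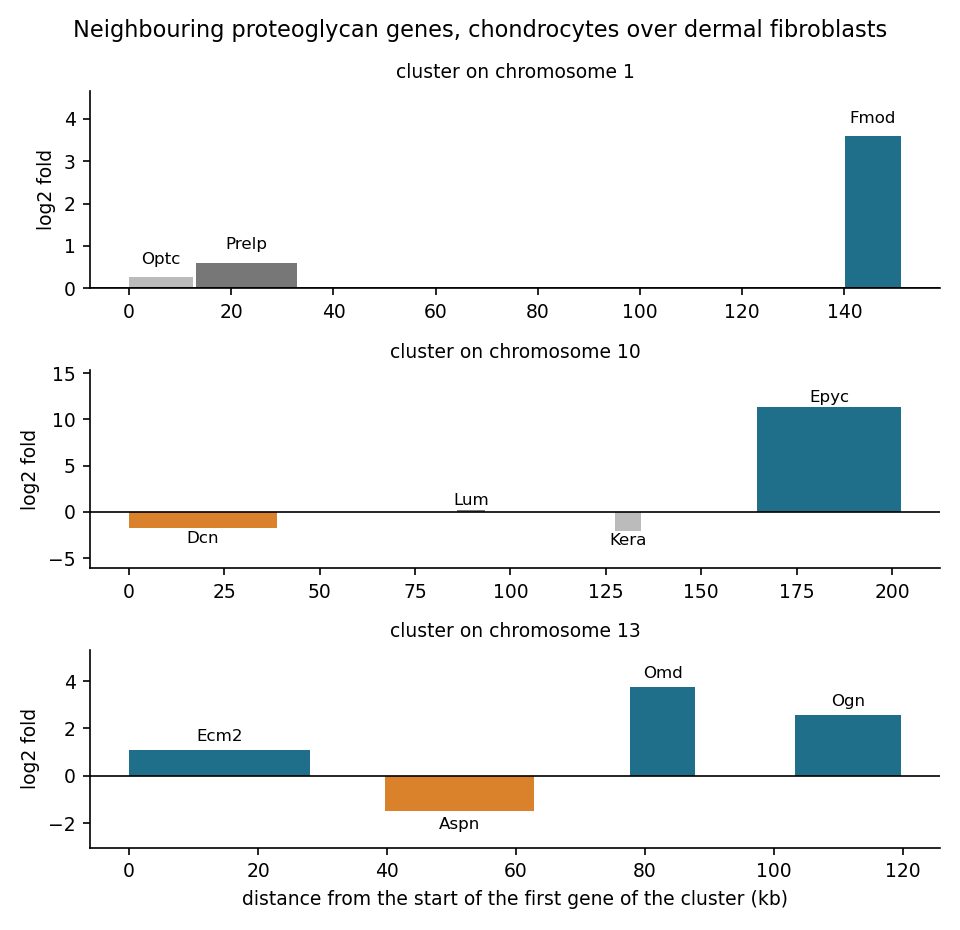
Log2 fold of chondrocytes over dermal fibroblasts (height of the bars, each panel with its own scale) for the genes of the 3 SLRP clusters, placed by distance in kb from the start of the first gene of the cluster. Blue bars are over 2-fold higher in chondrocytes, orange bars over 2-fold higher in dermal fibroblasts, dark grey bars within 2-fold and light grey bars have under 100 counts in both libraries. *Aspn* is the one orange bar of the chromosome 13 cluster, between *Ecm2* and *Omd*.

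**Figure D5:**
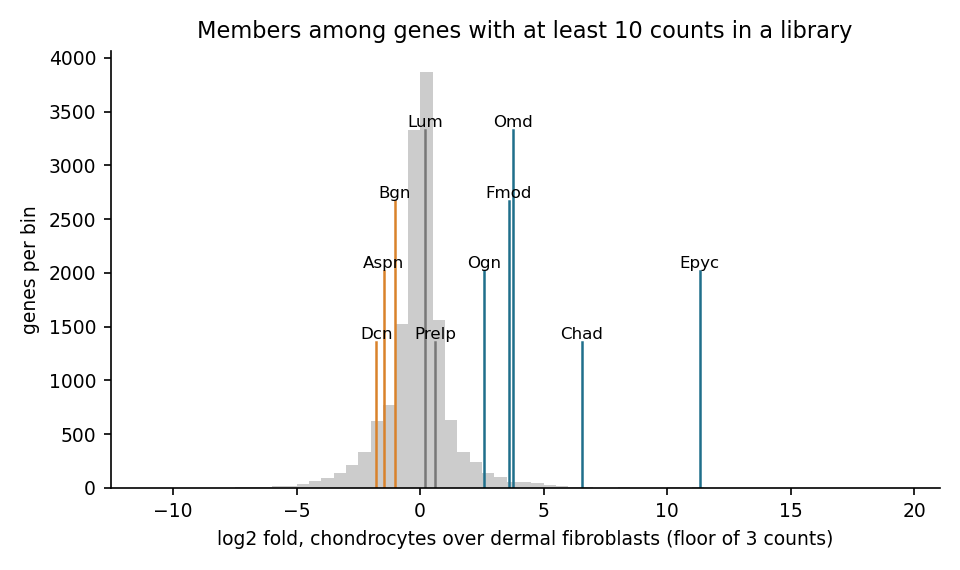
Distribution of the log2 fold of chondrocytes over dermal fibroblasts over the 14291 genes with at least 10 counts in either library (grey, bins of 0.5), with the 10 members as lines whose heights only separate the labels. *Epyc* and *Chad* lie far in the right tail, and *Lum* and *Prelp* lie within the bulk of genes.

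Of the 8 other genes of the family, 6 had at least 10 counts in either library. Of these 6, 2 were over 2-fold higher in chondrocytes (*Chadl* and *Ecm2*), 2 in dermal fibroblasts (*Podn* and *Kera*), and 2 lay within 2-fold (*Tsku* and *Podnl1*). The shares over all 14291 genes were 11.8% in chondrocytes and 16.2% in dermal fibroblasts. *Chadl*, a relative of chondroadherin, had 622 counts in chondrocytes against 24 in dermal fibroblasts and was 26.6-fold higher in chondrocytes (interval 17.7 to 41.9). Podocan (*Podn*), a class V member, had 178 and 2129 counts and was 11.6-fold higher in dermal fibroblasts (counting interval 9.99 to 13.6), a wider difference than that of *Dcn*. *Ecm2*, a class I gene and the neighbour of *Aspn*, had 144 and 70 counts. Its 2.11-fold difference in favour of chondrocytes, opposite to the class I members, had an interval from 1.58 to 2.85. Keratocan (*Kera*), a class II gene known from the cornea, had 0 counts in chondrocytes against 13 in dermal fibroblasts. Taken against the floor of 3 counts, which is 0.167 CPM in chondrocytes, it was 4.22-fold lower there. The counting interval of 0 against 13 reads began at a 2.97-fold difference. *Tsku* (class IV) had 455 and 700 counts, *Podnl1* (class V) 71 and 111, *Optc* (class III) 7 and 6, and *Nyx* (class IV) 2 and 2. At this depth no difference was detectable for *Optc* and *Nyx*.

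The enzymes that build the sulfated chains were counted by step. For comparison, 11.8% of all 14291 genes were over 2-fold higher in chondrocytes and 16.2% in dermal fibroblasts. Of the 6 enzymes that lay down the linkage to the core protein, 2 were over 2-fold higher in chondrocytes and 0 in dermal fibroblasts. *Xylt1*, a xylosyltransferase that starts the chain, had 4335 counts in chondrocytes against 352 in dermal fibroblasts (12.6-fold, interval 11.3 to 14.1), while its relative *Xylt2* had 399 and 465. *Fam20b*, the xylose kinase, was 3.52-fold higher in chondrocytes. Of 16 chondroitin and dermatan sulfate enzymes, 4 were over 2-fold higher in chondrocytes, 1 in dermal fibroblasts and 11 in neither. *Chst11*, a chondroitin 4-sulfotransferase, was 12.3-fold higher in chondrocytes (interval 11.4 to 13.4) and *Chsy1*, a chondroitin synthase, 3.67-fold. The dermatan-forming epimerase genes *Dse* and *Dsel* lay within 2-fold and went opposite ways. *Dsel* had 572 counts in chondrocytes against 1078 in dermal fibroblasts, 1.83-fold more in the latter (interval 1.66 to 2.03). *Dse*, the more abundant in both libraries, had 2704 and 1986 counts and was 1.40-fold higher in chondrocytes (interval 1.32 to 1.48).

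Sulfate supply showed the widest differences of these steps. Of 6 genes, 3 were over 2-fold higher in chondrocytes and 0 in dermal fibroblasts, against 11.8% and 16.2% of all 14291 genes. *Papss2*, which makes the activated sulfate donor, had 15526 and 727 counts and was 21.9-fold higher in chondrocytes (interval 20.4 to 23.7), and the sulfate transporter gene *Slc26a2* was 8.65-fold higher. Of the 6 keratan sulfate genes with at least 10 counts in either library, 1 was over 2-fold higher in chondrocytes (*B3gnt7*, 43 counts against 6) and 2 in dermal fibroblasts. The fold of *B3gnt7* was 7.36 (interval 3.12 to 21.2). *B4galt1*, a galactosyltransferase with many other substrates, had 1762 and 4561 counts and was 2.52-fold higher in dermal fibroblasts, and *Chst1*, a keratan sulfotransferase, had 59 and 127. The median log2 fold of these 6 genes, *B4galt1* included, was -0.30. That of *Fmod* was 3.59 and that of *Omd* 3.75, and whether chain synthesis follows these members was not tested.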

How the data were processed

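Total RNA of each cell type was made into 1 stranded mRNA library and read as 75 bp single ends. Per the labels and methods, the authors called bases with CASAVA 1.8.2 and mapped reads to mm10 with TopHat2 2.0.13, Bowtie2 2.2.3 and SAMtools 0.1.19. The deposited values are whole-number read counts per gene symbol without normalization. The counting program, annotation and strand setting are not given in the sources used here. In 27 rows the symbol had become a date, and these rows stayed in the totals under that name.

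From these counts, TMM factors (0.954 for chondrocytes, 1.05 for dermal fibroblasts) were computed with edgeR 4.0.16 in R 4.3.3, and CPM, RPKM, folds and intervals in Python 3.11.15 (scipy 1.17.1, numpy 2.4.6, pandas 2.3.3). Exon lengths came from GENCODE vM1 (92.2% of genes with at least 10 counts in either library) and positions from RefSeq GRCm38.p6. Intervals of the ratios between members used the log scale. Alternatives were total counts, DESeq2 1.42.0 size factors, upper quartile, totals without 17 abundant genes (the 10 most abundant of each library), *Actb*, a pseudocount of 1, a floor of 1 or 10 counts, a fold over 4, other count filters and transcript length. The members and lists were chosen with earlier results of these data known, and the member pairs, the motifs and the sequences shown after their values were seen. The rule for named genes took all members, the 8 other family genes, *Actb* and, from every other list, the 2 genes of highest and the 2 of lowest fold, given 100 or more counts in a library, and the most abundant gene of each library; not all of these are printed. *Matn1*, *Bglap*, *Mkx*, *B3gnt7*, *Dsg3*, *Itgb1*, *Erbb4*, *Tgfb1*, *Tgfb3*, *Dse* and the overlapping genes fall outside it and were added after their values were seen. The calculations were tested on simulated data. Amino acid sequences and the ChIP-Seq and ATAC-Seq data were not used here.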

Additional observations from a re-analysis of the deposited data

How the results depend on the processing

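A single choice was altered in each recomputation. No paired analysis was possible because neither cell type has more than 1 library. The number of members over 2-fold higher in chondrocytes was 5 under each scaling, floor, filter and threshold tried. In dermal fibroblasts this number was 3 or, where *Bgn* passed below the threshold with 3 of the scalings, 2, and it was 0 with a fold over 4. The median log2 fold of the members, 1.59, was 1.46 with total counts and 1.72 with *Actb*. These scalings moved the median over all genes with at least 10 counts by -0.14 and 0.12, a shift that a scaling gives to every gene alike. Of 80 values of single members under 8 alternatives, 61 stayed within the counting interval, 19 left it and 0 changed direction. The floors and the pseudocount can hardly change members with many counts, so most of their values were fixed in advance. Apart from *Epyc* with a floor of 10 counts, all values that left the interval came from the scalings, mostly total counts and *Actb*. Without the most abundant genes in the total, the members took 0.651% of the reads in chondrocytes and 0.873% in dermal fibroblasts, higher by construction. With the longest transcript as length, 8 of 10 members kept their place in the order in chondrocytes and 10 of 10 in dermal fibroblasts. With a minimum of 100 counts, 8.79% of 11162 genes were over 2-fold higher in chondrocytes and 13.3% in dermal fibroblasts. With no minimum, these shares were 7.73% and 10.1% of 24421 rows. Depth limits *Epyc* and *Chad* in dermal fibroblasts, with 1 and 7 reads.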

Other observations

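The proteases that act on SLRPs and their collagen partners, listed together with *Pcolce*, which is not a protease, were mostly higher in dermal fibroblasts. Of 10 genes with at least 10 counts in either library, 8 were over 2-fold higher there, 1 in chondrocytes and 1 in neither. Over all 14291 genes with such counts, 16.2% were higher in dermal fibroblasts and 11.8% in chondrocytes. *Mmp3* (stromelysin) had 66 counts in chondrocytes against 1217 in dermal fibroblasts and was 17.95-fold higher in the latter (14.0 to 23.4), and *Mmp14*, a membrane-bound collagenase, was 6.35-fold higher. *Pcolce*, the enhancer of procollagen processing, was 2.83-fold higher in dermal fibroblasts, and *Adamts4* 2.66-fold. *Mmp13*, the collagenase of hypertrophic cartilage, was 7.90-fold higher in chondrocytes (interval 6.99 to 8.94).

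Of 18 receptors and ligands known to bind SLRPs, 17 were in the table and 16 had at least 10 counts in either library. Of these 16, 7 were over 2-fold higher in dermal fibroblasts, 3 in chondrocytes and 6 in neither. Of all 14291 genes with at least 10 counts, 16.2% and 11.8% were so. *Itga2*, the integrin chain bound by chondroadherin, had 18 counts in chondrocytes against 139 in dermal fibroblasts, a direction opposite to that of *Chad*. Its partner *Itgb1* had 11953 and 19864. *Wisp1*, a matricellular protein that binds decorin and biglycan, was 5.25-fold higher in dermal fibroblasts (4.996 to 5.52). *Tgfb2*, a ligand that decorin and biglycan can hold in the matrix, was 6.75-fold higher in chondrocytes (interval 5.85 to 7.82), and the growth factor receptor gene *Met* 2.65-fold. *Tgfb1* went the other way, with 577 counts in chondrocytes against 2007 in dermal fibroblasts. It was 3.39-fold higher in the latter (interval 3.09 to 3.72). *Tgfb3* had 1834 and 2267 counts and lay within 2-fold. *Lrp1*, an endocytic receptor for decorin, had 19284 and 41391 counts and was 2.09-fold higher in dermal fibroblasts, and *Erbb4* was at 0 counts in both libraries.

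Of the 16 collagen genes listed as SLRP partners, 6 were over 2-fold higher in chondrocytes, 7 in dermal fibroblasts and 3 in neither. The shares over all 14291 genes were 11.8% and 16.2%. The most abundant were *Col2a1* in chondrocytes and *Col1a1* in dermal fibroblasts.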
